A study of Mus musculus with 8 samples.

Results

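Semaphorins are secreted or membrane-bound guidance proteins, plexins are their receptors, and neuropilins are co-receptors that bind the secreted class. All rows of the deposited gene table whose symbol belongs to 1 of these 3 families were taken by name, which gave 31 of its 24155 genes. They were 20 semaphorins, 9 plexins and 2 neuropilins, all annotated as protein-coding. The choice used gene symbols alone, though it was made with earlier results of these data known.

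The RNA came from oligodendrocyte progenitors, the dividing glial cells that form myelinating oligodendrocytes, cultured from mouse pups of both sexes at postnatal day 7 in SATO medium with PDGF-AA and bFGF, at 10 and 20 ng/mL in that order. Every culture carried Ehmt1 fl/fl and Ehmt2 fl/fl alleles, which are intact until Cre recombinase acts on them. The 4 control cultures received the Ad-RFP adenovirus and the 4 cKO cultures received Ad-RFP-iCre, which adds Cre. Virus was applied at 10 infectious units per cell and washed off after 6 hours, and the cells were harvested at 72 hours. Ehmt1 and Ehmt2 encode partner enzymes that methylate lysine 9 of histone H3. The replicate numbers 1, 3, 4 and 6 each name a batch with 1 control and 1 cKO library, and these are the 4 pairs compared below. The labels do not say that batches were separate litters or animals, so part of the spread between pairs may be technical. The cultures are cells in a dish without axons, infected as a whole, and loss of the alleles was not measured cell by cell.

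Plexins are single-pass receptors whose cytoplasmic part is a GTPase-activating domain for Rap and R-Ras proteins, and ligand binding turns it on, loosening adhesion and actin. Class 3 semaphorins are secreted and mostly need a neuropilin beside a class A plexin. Classes 4, 5 and 6 span the membrane, and class 7 is held by a lipid anchor. In this lineage Sema3a and Sema3f are known as a repellent and an attractant of migrating progenitors, and Sema4d is known as a membrane ligand made by oligodendrocytes.

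As a check of the labels, the log2 fold change of cKO over control was -1.2 ± 0.04 (SE) for Ehmt1 and -1.60 ± 0.03 (SE) for Ehmt2 in the paired fit, and each was lower in 4 of 4 pairs. The 8 libraries held 43542742 to 65374488 estimated counts. The progenitor markers Pdgfra, Cspg4, Olig1, Olig2, Sox10, Ptprz1, Gpr17 and Lhfpl3 summed to 7930 to 13200 CPM (counts scaled to a common library size) per library. Of these 8, Lhfpl3 rose, Pdgfra (-0.31 ± 0.03, SE) and Ptprz1 (-0.11 ± 0.03, SE) fell, and the sum was lower in cKO in 4 of 4 pairs. In replicates 4 and 6 much of that sum was Gpr17, at 5380 and 3900 CPM in control and 4290 and 2880 CPM in cKO. Gpr17 was higher in cKO in pairs 1 and 3 and did not pass. The part of these shifts in the members' differences was not tested. Of 8 markers of maturing oligodendrocytes, 5 rose and 0 fell in cKO, with sums of 249 to 1940 CPM in control and 310 to 2990 CPM in cKO libraries. Of 12 neuron markers, 9 were tested, 5 rose and 0 fell, with sums of 131 to 301 CPM in control and 194 to 335 CPM in cKO libraries. Most of each neuron sum came from Dcx. Of 6 astrocyte markers 2 rose and 2 fell, with sums of 782 to 2220 CPM in control and 681 to 1990 CPM in cKO, most of it from Slc1a3. Marker sums for microglia, pericytes and fibroblasts, and Schwann cells stayed at or under 2.71 CPM in every library. The microglial Cx3cr1, C1qa, Aif1 and Tmem119 and the endothelial Cdh5 and Cldn5 were not among the 24155 genes. Nor were the pericyte and fibroblast markers Kcnj8 and Dcn or the neuronal Slc17a6, and the sums leave these genes out. Csf1r, Pecam1, Tek and Emcn stayed under 1 CPM in every library. Endothelial markers summed to 2.97 to 10.9 CPM in control and 3.62 to 8.58 CPM in cKO, mostly from Kdr and Flt1, and none passed. In bulk RNA, fewer cells of a type and less RNA per cell cannot be told apart.

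In control libraries the highest members were plexins and membrane-bound semaphorins, and the neuropilins and class 3 ligands lay lower. Levels between genes are compared as CPM per kb of exon, since long genes collect more reads. Plxnb2, a receptor for class 4 semaphorins, was highest at 40.5 ± 5.69 CPM per kb (SD, n = 4). Sema6d followed at 33.1 ± 12.4 CPM per kb, then Plxnb3 at 24.3 ± 22.1, Sema6a at 23.9 ± 7.40, Plxna1 at 20.4 ± 3.67, Plxnb1 at 20.2 ± 5.76 and Sema5b at 15.4 ± 5.51 CPM per kb. These 7 genes were the members at or above 10 CPM per kb. The neuropilins were lower, with Nrp2 at 1.76 ± 0.543 and Nrp1 at 1.3 ± 0.191 CPM per kb. Sema3d led the secreted class at 3.15 ± 1.01 CPM per kb, with Sema3a at 1.66 ± 0.161. Sema3c, Sema4a, Sema4f, Sema3b, Sema3e, Sema3f, Sema3g and the receptor gene Plxna4 lay under 1 CPM per kb. The order was not fine-grained, because the ranges of neighbouring genes overlapped for 29 of 30 neighbours, the exception being Sema3f above Sema3g. Sema3g had 2 to 9 counts per library, did not pass the filter on low counts, and was not tested.

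**Figure D1:**
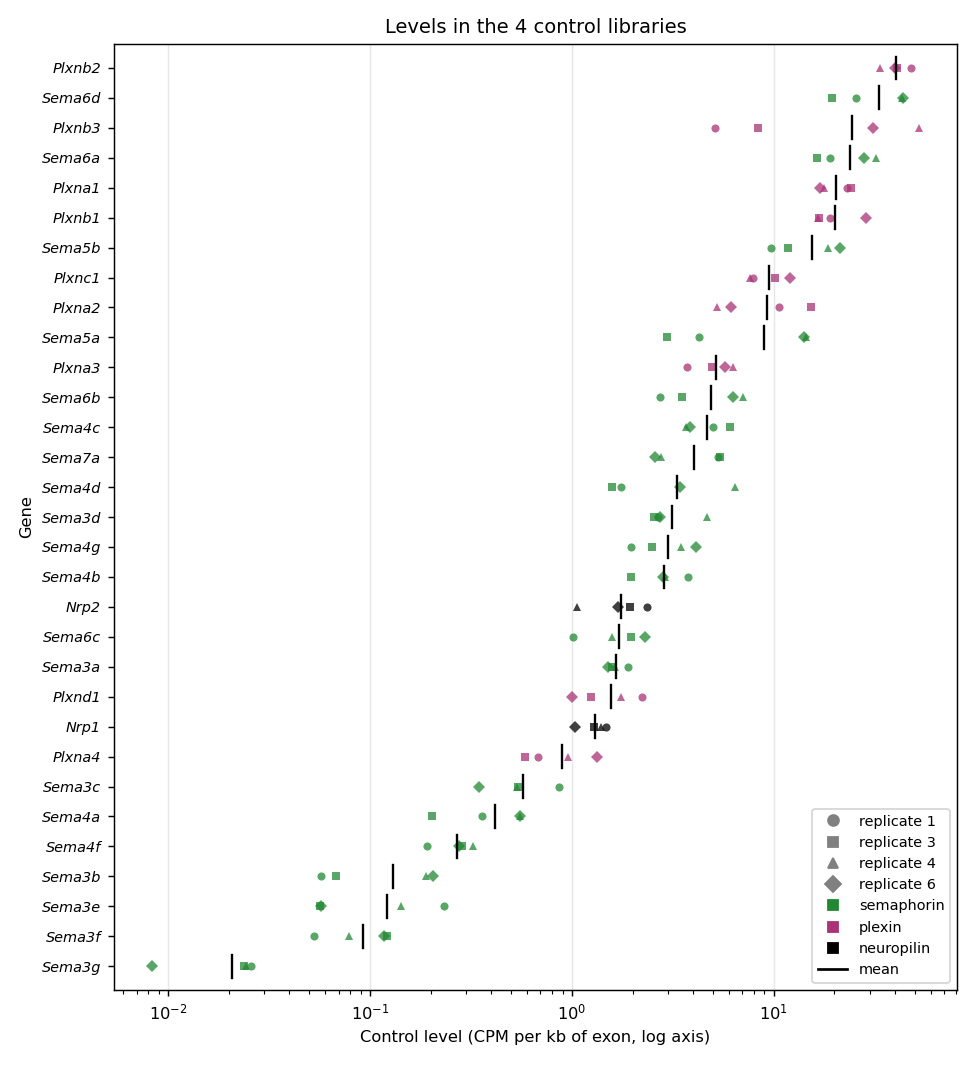
Level of each of the 31 genes in the 4 control libraries, in CPM per kb of exon on a log axis, with 1 symbol per library and a bar for the mean. The gene at the top, Plxnb2, averaged 40.5 CPM per kb and the gene at the bottom, Sema3g, 0.0207 CPM per kb, and Plxnb3 shows the widest gap between libraries among the higher genes.

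The comparison of cKO with control moved ligands in both directions and called receptors in 1 direction. A gene is said to have risen or fallen where edgeR's quasi-likelihood test, with the replicate number as a block, gave it a p under 0.05 after adjustment over 18102 genes. Of the 30 members tested, 3 rose, 7 fell and 20 did not pass. The secreted ligand genes Sema3d and Sema3c and the membrane ligand gene Sema4f rose. The membrane ligand genes Sema6d and Sema4b and the receptor genes Plxnb1, Plxna2, Plxna3, Plxnb2 and Plxnc1 fell. Over all genes tested, 20.5% were called, 10.0% higher and 10.4% lower, so the 3 members that rose stood at the background share. Among genes with a control mean of at least 10 CPM, 9.95% were called higher and 16.6% lower, and in that range 1 of 24 members rose and 7 fell. The median log2 fold change was -0.03 over the 30 members and -0.01 over all genes. These calls rest on differences within pairs. A fit on group alone called 0 members in edgeR, with 2 (Sema3c and Sema3d) under an unadjusted p of 0.05, against 3 called genes in all. Without the pair of replicate 4 the number that fell was 4 rather than 7, and 6 of the 10 calls were kept.

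**Figure D2:**
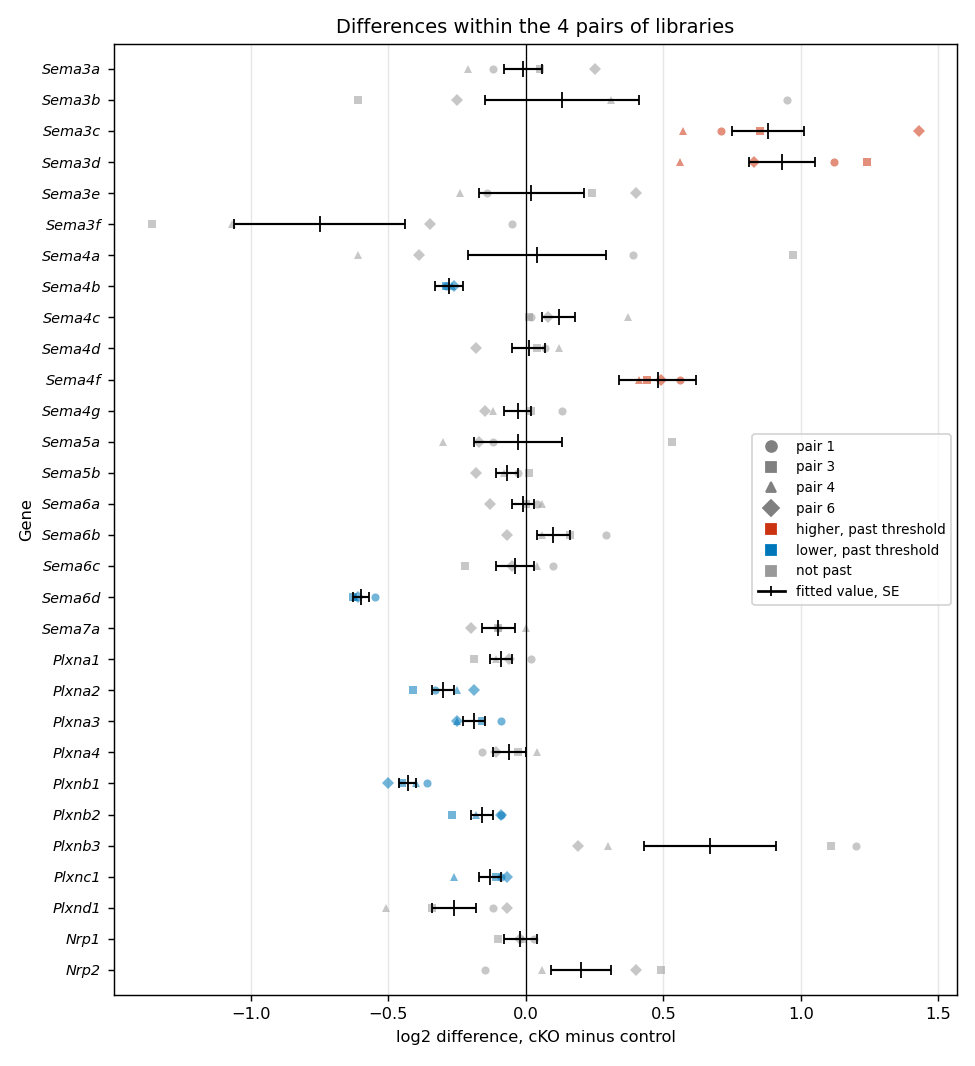
Log2 difference of cKO minus control for the 30 tested genes, with 1 symbol for each of the 4 pairs of libraries and the fitted value with its SE in black. Symbols of the 3 genes that rose lie right of 0 in every pair, those of the 7 that fell lie left of 0, and the symbols of Plxnb3 split into pairs 1 and 3 on the right and pairs 4 and 6 nearer 0.

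Promoter sequences are shown for the 4 called members with the smallest p, of which 3 fell and 1 rose. Each is the RefSeq window (GRCm38.p6) of 300 bases on the gene's strand, from 250 bases before the annotated start to 50 after it, 5′ to 3′, and capitals mark CG dinucleotides. The windows lie at chr2:124089719-124090018 (plus strand) for Sema6d, chr9:109095186-109095485 (plus strand) for Plxnb1, chr1:194619579-194619878 (plus strand) for Plxna2 and chr5:17574566-17574865 (plus strand) for Sema3c.
Sema6d: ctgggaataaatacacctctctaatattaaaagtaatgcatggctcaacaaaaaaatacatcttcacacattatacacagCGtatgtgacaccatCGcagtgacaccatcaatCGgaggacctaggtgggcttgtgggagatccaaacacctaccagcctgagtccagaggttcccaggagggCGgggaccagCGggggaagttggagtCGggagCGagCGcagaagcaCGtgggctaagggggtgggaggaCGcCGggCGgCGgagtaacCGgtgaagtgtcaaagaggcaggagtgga
Plxnb1: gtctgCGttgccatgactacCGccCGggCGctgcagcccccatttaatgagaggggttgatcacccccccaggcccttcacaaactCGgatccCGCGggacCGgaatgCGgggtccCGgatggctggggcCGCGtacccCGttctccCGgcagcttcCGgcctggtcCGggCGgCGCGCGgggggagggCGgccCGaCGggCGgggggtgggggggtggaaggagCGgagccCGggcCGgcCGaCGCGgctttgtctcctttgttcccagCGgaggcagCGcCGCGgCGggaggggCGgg
Plxna2: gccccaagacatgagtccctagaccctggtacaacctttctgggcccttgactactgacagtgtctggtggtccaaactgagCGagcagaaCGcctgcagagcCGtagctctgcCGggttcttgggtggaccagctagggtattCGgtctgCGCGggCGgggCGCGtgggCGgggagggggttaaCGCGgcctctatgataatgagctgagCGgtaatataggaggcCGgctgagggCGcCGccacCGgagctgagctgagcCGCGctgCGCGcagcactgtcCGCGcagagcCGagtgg
Sema3c: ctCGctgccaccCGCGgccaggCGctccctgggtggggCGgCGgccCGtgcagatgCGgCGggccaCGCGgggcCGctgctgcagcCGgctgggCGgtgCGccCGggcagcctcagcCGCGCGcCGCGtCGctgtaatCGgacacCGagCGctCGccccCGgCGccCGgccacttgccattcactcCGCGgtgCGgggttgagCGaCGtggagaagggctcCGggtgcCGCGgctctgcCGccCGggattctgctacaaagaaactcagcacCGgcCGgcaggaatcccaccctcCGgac

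The Sema3c window held 42 CG dinucleotides, Plxnb1 36, Plxna2 25 and Sema6d 14, against a median of 7 over all 32851 RefSeq windows. Of these 4 windows, that of the gene that rose held the most. The windows of Sema3d and Sema4f, which also rose, held 8 and 7. The 32851 windows were not limited to protein-coding or tested genes, and a gene can have several, while each member has 1. They are thus not a matched background for the members. A RefSeq window was found for 26 members, and Plxna1, Plxna4, Sema3b, Sema3f and Sema6a are only named. The RefSeq starts of Sema3a and Sema4d lie 271370 and 37064 bases from the deposited gene starts, so their windows describe other starts. Both windows are still in the counts below, among members that did not pass, with ratios of observed to expected CG of 0.162 and 0.101. The ratio of observed to expected CG was at least 0.6 in 6 of the 7 members that fell, in 1 of the 3 that rose (Sema3c), in 9 of 15 that did not pass and in 35.8% of all windows. The GC box GGGCGG, searched on both strands, occurred in all 7 windows of members that fell, in Sema3c alone of those that rose, in 73.3% of the windows of members that did not pass, and in 35.7% of all windows. The TATA box TATAAA, on both strands, occurred in 0 of the 26 member windows and 13.6% of all windows. The palindrome CAGCTG, a type of E-box, occurred in 16.3% of all windows and in 19.2% of the 26 member windows. It was in none of the 10 called members, but in Sema3g, Sema4d, Sema4g, Sema7a and, 2 times, Plxnb3. A match describes the letters of the window and is no evidence of binding.

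Sema3d was the only member whose control and cKO libraries did not overlap, a pattern seen in 3.68% of all genes tested. Sema3d (chromosome 5, 12383385 to 12588948, mm10, plus strand) encodes a secreted ligand that acts through Nrp1. It measured 23.0, 21.9, 40.0 and 23.4 CPM in control replicates 1, 3, 4 and 6 and 50.2, 51.9, 58.9 and 41.7 CPM in the matching cKO libraries. The lowest cKO library was thus above the highest control library, and control replicate 4 stood apart from the other controls. Sema3d rose 1.91-fold, with a log2 fold change of 0.93 ± 0.12 (SE), an adjusted p of 0.00549 in edgeR and a rise in 4 of 4 pairs. The rise within pair 4 was 0.56 on the log2 scale, against 0.83 to 1.24 in the other pairs.

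Sema3c (chromosome 5, 17574281 to 17730268, plus strand), a secreted ligand that signals through either neuropilin, measured 6.16, 3.85, 3.82 and 2.48 CPM in control replicates 1, 3, 4 and 6. The cKO libraries measured 10.1, 6.99, 5.69 and 6.76 CPM. Each cKO library was above its own control, while cKO replicate 4 lay below control replicate 1. Sema3c rose 1.84-fold (log2 fold change 0.88 ± 0.13, SE, adjusted p = 0.002 in edgeR).

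Both genes lie in a stretch of chromosome 5 that also holds Sema3a and Sema3e, and those 2 genes between them did not pass. Sema3a, the repellent, had means of 23.0 ± 2.23 (control) and 22.9 ± 2.35 (cKO) CPM (SD, n = 4), a log2 difference of -0.01 ± 0.07 (SE). Sema3e, which binds Plxnd1 without a neuropilin, stayed low at 1.13 ± 0.778 and 1.1 ± 0.608 CPM, with a log2 difference of 0.02 ± 0.19 (SE). From the start of Sema3d to the end of Sema3c the stretch spans 5.35 Mb and holds 25 genes of the table, of which 9 were tested. Of the 5 tested genes there that are no members, 1 rose, Pclo, which encodes the presynaptic scaffold piccolo (0.34 ± 0.03, SE, adjusted p = 0.000167 in edgeR), and 0 fell. Sema3b and Sema3f, which neighbour each other on chromosome 9, were scarce, each with as few as 9 counts in a library. Sema3f, the attractant that acts through Nrp2, had means of 0.481 ± 0.169 (control) and 0.283 ± 0.128 (cKO) CPM and was lower in 4 of 4 pairs, but did not pass (log2 difference -0.75 ± 0.31, SE, adjusted p = 0.118 in edgeR).

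Neither co-receptor gene passed the test. Nrp1 (chromosome 8, 128358604 to 128503363, plus strand) binds class 3 semaphorins and VEGF-A. It measured 14.5, 12.6, 13.7 and 10.2 CPM in control replicates 1, 3, 4 and 6 and 14.8, 11.8, 13.6 and 10.1 CPM in the cKO libraries. Each pair of Nrp1 values lay within 0.10 on the log2 scale, and the fitted log2 difference was -0.02 ± 0.06 (SE, adjusted p = 0.824 in edgeR). Nrp2 (chromosome 1, 62703285 to 62818695, plus strand), the partner of Sema3f, measured 27.9, 22.9, 12.5 and 20.0 CPM in control and 25.1, 32.3, 13 and 26.5 CPM in cKO libraries. Nrp2 was higher in 3 of 4 pairs and lower in pair 1, and did not pass (0.20 ± 0.11, SE, adjusted p = 0.25 in edgeR). Without the pair of replicate 1, the value for Nrp2 was 0.33 with an adjusted p of 0.0345.

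Sema6d showed the smallest p of the members and fell by nearly the same ratio in every pair. Sema6d (chromosome 2, 124089969 to 124667770, plus strand) encodes a membrane ligand of Plxna1. It measured 272, 205, 459 and 462 CPM in control replicates 1, 3, 4 and 6 and 185, 133, 298 and 303 CPM in the cKO libraries. The groups overlapped because batches 4 and 6 started from a higher level, yet every pair fell, by 0.55 to 0.63 on the log2 scale. The fitted log2 fold change was -0.60 ± 0.03 (SE), or 65.8% of control, with an adjusted p of 1.52e-06 in edgeR. Its promoter, printed above, has the same start as the deposited gene, while the RefSeq starts of Plxnb1, Sema3c and Plxna2 lie 47, 535 and 1611 bases from the deposited ones. The other class 6 genes did not pass. Sema6a, a ligand of Plxna2 and Plxna4 with a like level per length, had means of 210 ± 65 (control) and 208 ± 66.0 (cKO) CPM (SD, n = 4; log2 difference -0.01 ± 0.04, SE). Sema6b and Sema6c differed by 0.10 ± 0.06 and -0.04 ± 0.07 (SE) on the log2 scale.

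Of the 6 class 4 ligand genes, Sema4f rose, Sema4b fell and 4 did not pass. Sema4b (chromosome 7, 80186841 to 80226527, plus strand), a membrane semaphorin, measured 21.3, 11.1, 16.4 and 16.0 CPM in control replicates 1, 3, 4 and 6 and 17.4, 9.05, 13.6 and 13.3 CPM in cKO libraries. The pairs fell by nearly equal amounts, 0.26 to 0.29 on the log2 scale, and the fitted value was -0.28 ± 0.05 (SE, adjusted p = 0.00526 in edgeR). Sema4f (chromosome 6, 82911885 to 82939769, minus strand) encodes a membrane semaphorin and was scarce. It measured 1.02, 1.52, 1.71 and 1.46 CPM in control and 1.52, 2.08, 2.29 and 2.07 CPM in cKO libraries, a log2 fold change of 0.48 ± 0.14 (SE, adjusted p = 0.0328 in edgeR). Sema4f kept a similar size when any pair was left out (0.46 to 0.52) but then did not pass, with adjusted p-values of 0.0951, 0.0894, 0.0893 and 0.0785 without replicates 1, 3, 4 and 6, and it had 0.0925 in DESeq2. Sema4d, the ligand of Plxnb1, had means of 25.4 ± 17.4 (control) and 26.0 ± 19.3 (cKO) CPM (log2 difference 0.01 ± 0.06, SE). Sema4a, Sema4c and Sema4g had log2 differences of 0.04 ± 0.25, 0.12 ± 0.06 and -0.03 ± 0.05 (SE). Of the other classes, Sema5a, Sema5b and the lipid-anchored Sema7a had -0.03 ± 0.16, -0.07 ± 0.04 and -0.10 ± 0.06 (SE), and none passed. Without the pair of replicate 3, the only pair in which Sema5a was higher, its value was -0.19 with an adjusted p of 0.0283.

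**Figure D3:**
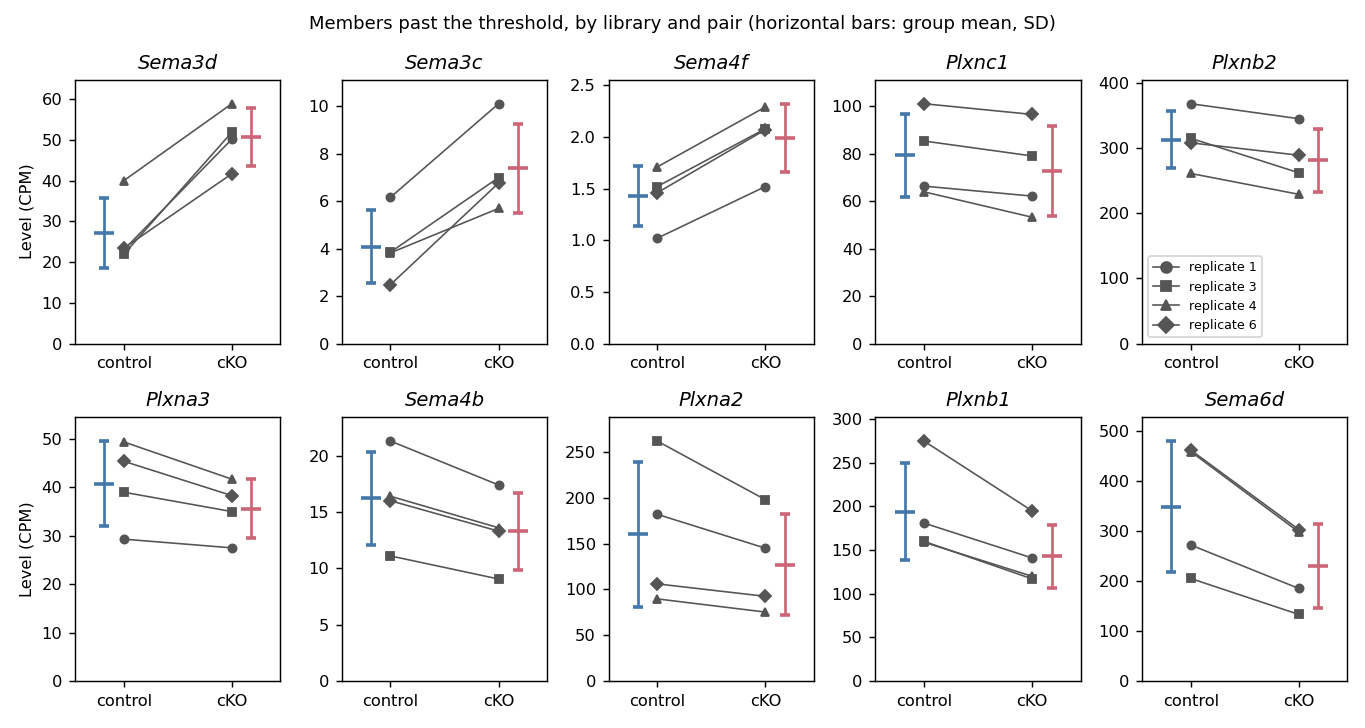
Level in CPM of the 10 members past the threshold, with a line joining the control and cKO library of each replicate number and bars for the group means and SD (n = 4). Sema3d, Sema3c and Sema4f slope upward in all 4 pairs and the other 7 genes slope downward, most steeply for Sema6d.

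Of the 9 receptor genes, 5 fell, 0 rose and 4 did not pass, and 8 of the 9 fitted differences were below 0. Over all genes tested 10.4% were called lower, or 16.6% of those with a control mean of at least 10 CPM, and 9350 of 18102 fitted differences were below 0. Plxnb1 (chromosome 9, 109095389 to 109119917, plus strand), the receptor of Sema4d, measured 181, 160, 159 and 275 CPM in control replicates 1, 3, 4 and 6 and 141, 117, 120 and 195 CPM in cKO libraries. Every pair fell, by 0.36 to 0.50 on the log2 scale, and control replicate 6 stood above the rest. The fitted value was -0.43 ± 0.03 (SE), or 74.2% of control, with an adjusted p of 2.36e-05 in edgeR.

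Plxna2 (chromosome 1, 194618218 to 194816869, plus strand), a receptor of Sema6a and a partner of neuropilins, measured 182, 262, 89.6 and 106 CPM in control and 145, 198, 75.2 and 92.4 CPM in cKO libraries. Batches 1 and 3 were above batches 4 and 6 in both groups, and each pair fell. The fitted value was -0.30 ± 0.04 (SE), or 81.4% of control, with an adjusted p of 0.00053 in edgeR. Plxna3 (chromosome X, 74329066 to 74344689, plus strand), the partner of Nrp2 in Sema3f signalling, measured 29.3, 39.0, 49.4 and 45.4 CPM in control and 27.5, 35.0, 41.7 and 38.3 CPM in cKO replicates 1, 3, 4 and 6. It fell in each pair, with a fitted value of -0.19 ± 0.04 (SE, adjusted p = 0.011 in edgeR). Its adjusted p was 0.088 without the pair of replicate 4. Plxnb2 (chromosome 15, 89155549 to 89180788, minus strand), the highest member per length, measured 368, 315, 261 and 308 CPM in control and 345, 262, 229 and 289 CPM in cKO replicates. It fell in each pair although the groups overlapped (-0.16 ± 0.04, SE, adjusted p = 0.0108 in edgeR), with adjusted p-values of 0.0811 and 0.0805 without replicates 3 and 4. Plxnc1 (chromosome 10, 94790866 to 94944835, minus strand), the receptor of Sema7a, measured 66.3, 85.3, 63.9 and 101 CPM in control and 62.1, 79.0, 53.2 and 96.5 CPM in cKO replicates. Its fall was the smallest of the 7 (-0.13 ± 0.04, SE, adjusted p = 0.0337 in edgeR). Its adjusted p was 0.0692, 0.117 and 0.231 without replicates 1, 3 and 4, 0.054 with upper-quartile factors and 0.0603 in DESeq2. Plxna3, Plxnb2 and Plxnc1 thus stayed at 87.9%, 89.6% and 91.2% of control.

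Plxna1, the most abundant class A receptor, and Plxna4 did not pass, with log2 differences of -0.09 ± 0.04 and -0.06 ± 0.06 (SE). Plxnd1, the receptor of Sema3e, just missed the threshold, with means of 11.4 ± 4.01 (control) and 9.52 ± 3.74 (cKO) CPM (SD, n = 4; log2 difference -0.26 ± 0.08, SE, adjusted p = 0.0501 in edgeR) and a lower value in 4 of 4 pairs. It passed with RLE factors (0.0497), without a filter on low counts (0.0485), in limma-voom (0.0491) and without the pair of replicate 6 (0.0288). Plxnd1 therefore sits at the edge of the test.

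Plxnb3, the receptor of Sema5a, was the 1 receptor gene with a fitted difference above 0. It measured 33.1, 54.6, 341 and 203 CPM in control replicates 1, 3, 4 and 6 and 76.0, 117, 421 and 231 CPM in cKO libraries. The cKO library was higher in all 4 pairs, by 1.2 and 1.11 on the log2 scale in pairs 1 and 3, where the control level was low, and by 0.30 and 0.19 in pairs 4 and 6. The fitted log2 difference was 0.67 ± 0.24 (SE) and did not pass (adjusted p = 0.162 in edgeR, 0.0444 in DESeq2). Whether the difference depends on the batch was not tested. The promoter window of Plxnb3 held 4 CG dinucleotides, the fewest among the 9 receptor and co-receptor windows found.

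Some members differed in level between batches 1 and 3 and batches 4 and 6, while 16 of 30 overlapped. In 10 of 30 members all 4 libraries of batches 4 and 6 were above all 4 of batches 1 and 3, a pattern held by 16.9% of all genes tested, and in 4 members the reverse held, against 17.2%. The 10 were Sema6d, Sema6a, Sema6b, Sema5a, Sema5b, Sema4d, Sema4g, Sema3b, Plxnb3 and Plxna4, and the 4 were Plxna1, Plxna2, Sema4c and Sema7a. In control libraries the ratio of the mean of batches 4 and 6 to that of batches 1 and 3 was 6.20 for Plxnb3, 3.96 for its ligand Sema5a, 2.98 for Sema4d and 0.440 for Plxna2. Sema5a measured 79.5, 55.5, 269 and 264 CPM in control replicates 1, 3, 4 and 6. Sema4d measured 13.4, 12.2, 49.7 and 26.4 CPM in the same libraries. Markers of maturing oligodendrocytes were split the same way, with sums of 546, 249, 1940 and 1120 CPM in control and 764, 310, 2990 and 1210 CPM in cKO replicates 1, 3, 4 and 6. Progenitor markers did not divide as one. Gpr17, which marks progenitors committed to differentiate, measured 102, 488, 5380 and 3900 CPM in control replicates 1, 3, 4 and 6, while Olig1 measured 2030, 2310, 1270 and 1740 CPM. The batches were noted to divide in this way after the values were seen, and the part of maturation in the members' levels was not tested.

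**Figure D4:**
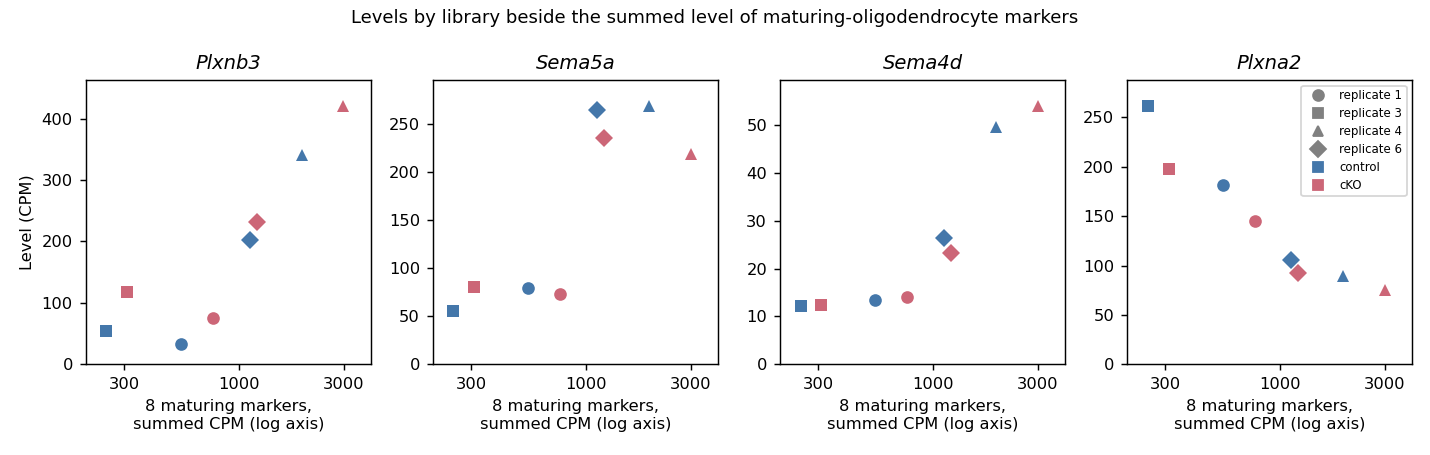
Level in CPM of Plxnb3, Sema5a, Sema4d and Plxna2 in the 8 libraries, against the summed CPM of 8 markers of maturing oligodendrocytes on a log axis, with symbols for replicates and colours for groups. Plxnb3, Sema5a and Sema4d are higher in replicates 4 and 6, where the marker sum is 1120 to 2990 CPM, and Plxna2 is higher in replicates 1 and 3.

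Beyond the families, genes were listed for holoreceptor partners, VEGF ligands and the receptor Flt4, GTPase regulators, kinases and the activator Cdk5r1, and actin effectors. This list of plexin signalling held 62 genes, and 57 were tested. Of these 5 rose, 10 fell and 42 did not pass, with a median log2 difference of -0.05. The called share was 26.3%, against 20.5% of all genes tested, where 10.0% were higher and 10.4% lower. Among genes with a control mean of at least 10 CPM, 9.95% were higher and 16.6% lower. The listed genes were not matched by level to either share, so 26.3% is not read as an excess. Among 12 receptors and receptor partners 1 rose and 3 fell, and among 17 GTPases and their regulators 1 rose and 2 fell. Among 6 genes for VEGF ligands and the VEGF receptor Flt4, 0 rose and 1 fell. Of 10 genes for kinases and the Cdk5 activator Cdk5r1, 1 fell, and of 12 genes for MICAL, CRMP and actin effectors 3 rose and 3 fell. Without replicate 1 the number that rose was 3, and without replicates 3 and 4 the numbers that fell were 5 and 6.

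L1cam, an adhesion molecule that joins Nrp1 in the Sema3a receptor, changed most among the called genes of the list. It measured 0.98, 2.33, 8.15 and 4.51 CPM in control replicates 1, 3, 4 and 6 and 5.14, 6.61, 27.8 and 12.6 CPM in cKO libraries. L1cam was higher in 4 of 4 pairs (1.72 ± 0.12, SE, adjusted p = 5.29e-05 in edgeR), while the groups overlapped across batches. It is also a neuronal gene, and the neuron marker sums given above, mostly from Dcx, were higher in cKO in all 4 pairs. Of the neuron markers 5 rose and 0 fell, while Rbfox3 was lower in all 4 pairs without passing. The part of neuron markers in the rise of L1cam was not tested. Erbb2, which couples to class B plexins, fell from 14.0 to 8.73 CPM (-0.72 ± 0.10, SE, adjusted p = 0.00187 in edgeR). Erbb2 overlaps Mien1 on the opposite strand, whose level was 206% of its own, and reads of the 2 genes cannot be told apart if counting ignored strand. Vegfa, the growth factor that competes for Nrp1, fell from 14.4 to 10.2 CPM (-0.50 ± 0.06, SE, adjusted p = 0.000627 in edgeR).

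Of the genes further downstream, Micall2, a MICAL-like protein gene, was scarce and fell from 2.20 to 1.36 CPM (-0.71 ± 0.16, SE, adjusted p = 0.0109 in edgeR). Rap1a, a GTPase on which plexins act, rose from 40.0 to 52.0 CPM (0.38 ± 0.04, SE, adjusted p = 0.000354 in edgeR), and its groups did not overlap. Crmp1, a phosphoprotein that mediates the Sema3a response, rose from 168 to 214 CPM (0.36 ± 0.04, SE, adjusted p = 0.000212 in edgeR), and it overlaps Evc on the opposite strand, at 16.5% of its level. The kinase gene Fyn fell from 798 to 706 CPM (-0.17 ± 0.03, SE) and Arhgap35, the GAP p190 that links plexins to RhoA, from 853 to 754 CPM (-0.17 ± 0.04, SE). Their adjusted p-values in edgeR were 0.00462 and 0.00696, and that of Fyn was 0.0501 without the pair of replicate 4. Dpysl5, a relative of Crmp1, fell from 41.5 to 34.6 CPM (-0.26 ± 0.06, SE, adjusted p = 0.0105 in edgeR), with 0.0755 and 0.0692 without replicates 3 and 4.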

How the data were processed

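RNA-seq of 8 libraries was analysed. Per the labels' protocols, poly(A) RNA (RIN of 8 or more) was captured on oligo-dT beads, fragmented and copied from random hexamers. The genome build mm10 and the tools cutadapt, STAR, Partek and DESeq2 are named, per the submitters' processing notes. Tool versions, the counting annotation and any strand setting are, in the sources used here, not given. The values the authors deposited are expected counts per gene, not normalized, and 52.0% of them are not whole. Deposited stops were 1 base past the GENCODE M21 end in 23277 of 23427 matched genes, so ends are given as the stop minus 1.

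Columns were matched to samples by batch name. Counts were rounded, filtered with filterByExpr (minimum count of 10), scaled by TMM and tested in edgeR 4.0.16 (R 4.3.3) by the quasi-likelihood F test on a robust fit. P-values are 2-sided and were adjusted over 18102 genes by the Benjamini-Hochberg method. The replicate number was a block because the labels give each batch 1 library of each group. Deviations from group means correlated at 0.75 to 0.79 between same-numbered libraries, against at most 0.39 otherwise. CPM values use TMM-scaled library sizes, and pair differences use log2 CPM with a prior count of 2. Exon lengths are unions of GENCODE M21 exons, which need not match the counting annotation. No 2 libraries of a group were duplicates (chi-square per degree of freedom of 49.3 or more). The fits were tested on simulated data.

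Members, lists and tests were chosen with earlier results of these data known. All members were described; values in full went to called members and neuropilins, to listed signalling genes with the smallest p, up to 8, and promoters to the 4 called members with the smallest p. Micall2 and the other members named with values, Plxnb3, Plxnd1 and Sema5a included, were picked after their values were seen. Alternatives were group alone, RLE and upper-quartile factors, no filter, 1 CPM in 4 libraries, each pair left out, DESeq2 1.42.0 and limma-voom 3.58.1. Members overlap genes at no more than 2.78% of their own level, except Sema4c, at 8.31%.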

Additional observations from a re-analysis of the deposited data

Results flagged for a closer look

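Among 62 combinations of a member and a group, 2 had 1 library far from the other 3, where chance flags about 1 in 20. Sema3d was high in control replicate 4, at 40.0 CPM against 21.9 to 23.4 CPM in the other controls, and without that pair its log2 fold change was 1.08. Sema3g was low in control replicate 6, at 0.0379 CPM, where it had 2 counts.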

How the results depend on the processing

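With the replicate block 3 members rose and 7 fell; without it 0 members rose and 0 fell, and 0 genes of the signalling list rose and 0 fell. Over all genes 3706 were called with the block, 3 without it, and 2367, 2102 and 2118 without replicates 1, 3 and 4. Leaving out each pair in turn gave 2 to 3 members that rose and 4 to 8 that fell, and 3 to 4 and 5 to 10 genes of the signalling list. All 10 calls were kept with RLE factors, no filter, the CPM filter and limma-voom, 9 with upper-quartile factors and 8 in DESeq2. Sema3c, Sema3d, Sema4b, Sema6d, Plxna2 and Plxnb1 kept theirs under every alternative with the block, left-out pairs included. Signs turned only in 10 members that did not pass, and 0 of these turned values passed. With upper-quartile factors the log2 difference was 0.01 for Sema3a and 0.00 for Sema6a, without the block -0.04 for Sema3e and -0.01 for Sema4a, and in limma-voom -0.03 for both Sema3e and Sema4a. Over left-out pairs it ran from -0.04 to 0.00 for Nrp1, -0.10 to 0.07 for Sema3a, -0.10 to 0.31 for Sema3b, -0.09 to 0.13 for Sema3e and -0.21 to 0.29 for Sema4a. It ran from -0.02 to 0.08 for Sema4d, -0.08 to 0.01 for Sema4g, -0.19 to 0.08 for Sema5a, -0.02 to 0.03 for Sema6a and -0.07 to 0.03 for Sema6c. The cause of these shifts was not tested. Sema3g, at 0.0379 to 0.145 CPM and as few as 2 counts, did not pass the filter on low counts.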
